A study of Setaria viridis with 13 samples.

Results

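Genes of green millet (Setaria viridis) whose deposited start site offset lay above 100 nt numbered 350, of 4900 genes with an offset (7.14%) and of 35471 genes in the expression table. They were chosen by that offset alone, a signed whole number of nt per gene whose sign convention is not given in the sources used here, so the sign is used as deposited. The rule used no expression value, though having an offset at all went with expression, as given below. Expression is described across 13 samples of accession A10, a small C4 grass grown in hydroponics. The labels name no transgene, mutation or treatment, so the samples differ by tissue and age alone.

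The youngest sample was the coleoptile (VE, 3 days after germination). At V3 (day 10) there were a vegetative meristem, a bulk shoot and leaf 3 cut into its tip, its base just above the ligule, and a mid and a lower section on either side of leaf 2's ligule. V5 (day 15) gave an inflorescence meristem, a bulk root and a bulk shoot. Stage R gave a bulk shoot (day 20) and a panicle before (day 22) and after (day 25) anthesis. Each stood as 1 column of log2(FPKM + 1), although 3 biological replicates from plants grown at different times had been sequenced. FPKM counts fragments per length of transcript and per sequenced total. With merged replicates no difference could be set against replicate error, no test was made, and sequencing depth is unknown. All values describe these libraries. In whole tissues, fewer cells of a type and less RNA per cell cannot be told apart.

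A transcription start site is the base at which RNA polymerase II begins a messenger RNA, and it fixes how long the leader before the start codon is. Plant promoters range from sharp, with nearly all transcripts starting at the same base, to broad, with starts scattered over a stretch of DNA. An annotated gene start often rests on predictions or on a few cloned transcripts, so starts read from RNA can lie away from it. Genes used in every tissue are often called housekeeping genes, and genes confined to a tissue carry its special functions. No names go with the gene IDs here, so genes are given by ID and no function is stated for any of them. For the same reason the tissue labels could not be checked against marker genes.

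Among the 350 genes the offset ran from 101 to 620 nt, with a median of 170 nt and quartiles of 123 and 241 nt. Offsets of 101 to 150 nt accounted for 145 genes, 151 to 200 nt for 77, 201 to 300 nt for 77 and larger offsets for 51. The threshold cut a smooth tail: 66 genes had offsets of 91 to 100 nt and 43 had 101 to 110 nt. The 350 genes were 19.2% of the 1825 genes with a positive offset. The list of all offsets peaked on the other side of 0, with 177 genes at -9 nt, its most frequent value, and ended at -200 nt on the negative side. These values chose the genes and are given as a description.

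**Figure D1:**
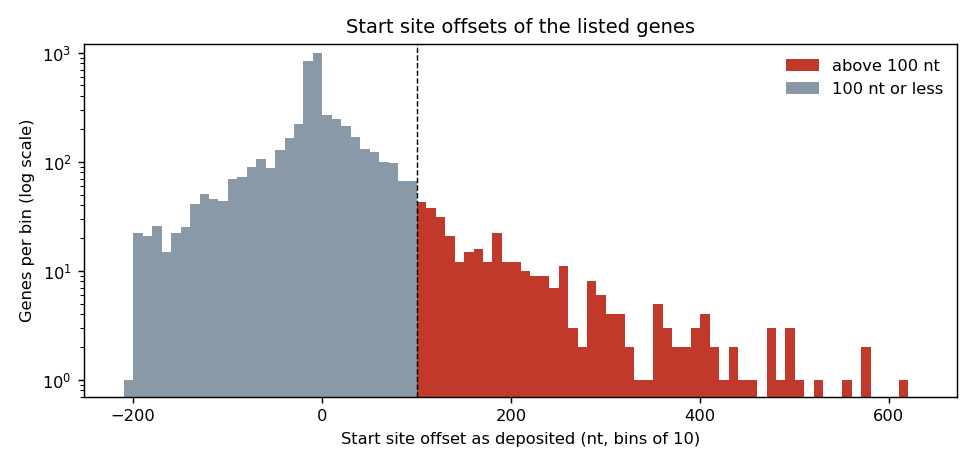
Number of genes (log scale) per 10-nt bin of the deposited start site offset for all 4900 listed genes, with the 350 genes above 100 nt in red and a dashed line at the threshold. The bins fall off without a gap at 100 nt, and the red tail reaches 620 nt while the negative side ends at -200 nt.

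The 3 genes at 101 nt were Si002288m.g, with a mean FPKM of 9.38 and its highest level in the inflorescence meristem (37.1), Si017823m.g at a mean of 147 and Si037178m.g at a mean of 158. Of the 8 genes at 100 nt, the first 3 by ID were Si010368m.g at a mean of 35.3, Si010858m.g at 15.9 and Si011289m.g at 238. All 6 reached FPKM 1 in at least 12 samples.

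Most genes with offsets above 100 nt were expressed in every sample. An FPKM of 1 was reached in all 13 samples by 263 of the 350 (75.1%), against 66.5% of the other 4550 listed genes and 27.6% of all genes. An FPKM of 5 was reached in all samples by 176 (50.3%), against 41.0% of the other listed genes and 11.0% of all genes. Of the 30571 genes without an offset, 21.3% reached FPKM 1 in all samples, and their median of the mean FPKM was 0.503. A contrast with all genes thus mixes being listed with the size of the offset. In 7 to 12 samples FPKM 1 was reached by 82 of the 350 (23.4%, against 26.2% of the other listed genes), and in 1 to 6 samples by 5 (1.43%, against 6.64%). Genes with offsets of 1 to 100 nt had a like share in 1 to 6 samples, at 1.63%. None of the 350 was under FPKM 1 everywhere, as 29 of the other listed genes were. Of those 29, 22 had offsets under -20 nt and 1 had an offset of 1 to 100 nt. A value of 0 in any sample was listed for 7 of the 350 (2.00%), against 8.20% of the other listed genes and 3.39% of those from 1 to 100 nt.

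The other offset groups differed from each other at least as much as the 350 differed from all of them together. Expression at FPKM 1 in all samples was found for 83.3% of the 1475 genes with offsets of 1 to 100 nt, 75.9% of the 83 genes at 0, 63.5% of the 1779 genes from -20 to -1 nt and 49.9% of the 1213 genes under -20 nt. The 350 genes were thus 8.64 percentage points above the other listed genes while their difference from the group with smaller positive offsets was -8.11 points.

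**Figure D2:**
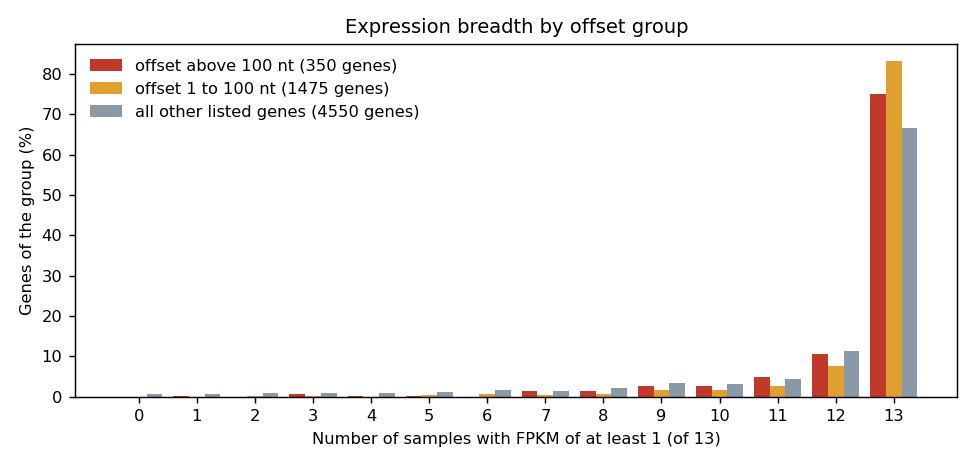
Percent of genes in each group by the number of samples (of 13) in which they reached an FPKM of 1. At 13 samples the genes with offsets above 100 nt stand at 75.1%, between those with offsets of 1 to 100 nt (83.3%) and all other listed genes (66.5%).

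Levels also varied between offset groups. The median of the mean FPKM over the 13 samples was 25.8 in the 350 genes (quartiles 11.3 and 80.1), against 20.6 in the other listed genes (8.14 and 55.9). It was 58.3 for the genes at 0, the highest of the groups, 32.4 for offsets of 1 to 100 nt, 21.6 for -20 to -1 nt and 11.1 for offsets under -20 nt. Mean levels in the 350 ran from 0.639 in Si021073m.g to 6110.3 in Si020830m.g. An FPKM of 5 was not reached in any sample by 11 of them, and 69 had a mean of 100 or more.

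Breadth depends on level, so the groups were also compared within ranges of mean FPKM. Between 5 and 20, 70.5% of the 105 genes with offsets above 100 nt reached FPKM 1 in all samples, against 63.3% of the other listed genes and 76.7% of those with offsets of 1 to 100 nt. Between 20 and 100 the shares were 90.2%, 82.8% and 90.4%, and at 100 or more they were 91.3%, 88.0% and 92.2%. Under 5, where only 43 of the 350 fell, they were 14.0%, 13.5% and 29.8%. In each range above 5 the 350 genes lay between the other 2 groups, and within 1 percentage point of the smaller positive offsets at 20 or more.

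Within the 350 genes, the size of the offset went little with expression. Spearman's correlation of the offset with mean log2(FPKM + 1) was -0.04, with the number of samples at FPKM 1 it was -0.05, and with the tau index (0 for a gene equal in all samples, 1 for a gene in a single sample) it was 0.01. These run across 350 genes of the same libraries and are a description. The 51 genes above 300 nt had a lower median of the mean FPKM (17.6) than the genes of 101 to 150 nt (30.9), 151 to 200 nt (31.1) and 201 to 300 nt (32.3). Expression in all samples was found for 62.7% of them, against 77.2%, 72.7% and 81.8%. Among genes above 200 nt alone, the Spearman correlation with mean log2(FPKM + 1) was -0.28.

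The 8 genes with the largest offsets were of low to moderate level and mostly broad. Si029815m.g, with the largest offset (620 nt), reached FPKM 72.0 in the post-anthesis panicle, with 22.9 next in the lower leaf section, had a median of 7.75 over the samples and was at 0.879 in the root. Si022310m.g (574 nt) ran from 3.38 in the coleoptile to 37.1 in the lower leaf section, with a median of 17.6. Si018448m.g (572 nt) ran from 5.06 in the post-anthesis panicle to 22.1 in the root, with a median of 11.0. The root was thus the lowest sample of the first gene and the highest of the third.

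Si010488m.g (555 nt) ranged from 3.82 in the root to 54.7 in the R bulk shoot, and Si011258m.g (526 nt) varied least of the 8, from 16.8 in the lower leaf section to 66.6 in the post-anthesis panicle. Si023330m.g (502 nt) and Si023136m.g (495 nt) were both highest in the leaf mid section, at 15.2 and 14.7. Si038340m.g (497 nt) was at 183 in the vegetative meristem and 20.0 in the lower leaf section. These 8 genes had their highest level in 6 different samples, so the largest offsets were not tied to a single tissue.

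Sample by sample, the median level of the 350 genes was above that of the other listed genes in all 13 samples. On the log2(FPKM + 1) scale it was 4.89 in the leaf mid section against 4.16, 4.26 against 3.62 in the leaf base, 4.24 against 3.62 in the tip and 4.53 against 4.01 in the lower section. The smallest gap was in the inflorescence meristem, at 4.42 against 4.25. In the root both medians were low, at 3.96 and 3.66. The number of the 350 at FPKM 1 was lowest in the root, at 309 (88.3%), then the leaf tip, at 317 (90.6%), and highest in the R bulk shoot, at 341 (97.4%).

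Relative to each gene's own mean, the 350 genes lay higher in leaf 3 than the other listed genes did, and lower in the inflorescence meristem. Within leaf 3 their own median was above 0 in the mid and lower sections and below 0 in the base and tip. In the leaf mid section their median deviation was 0.38 on the log2 scale against 0.03 in the other listed genes, a difference of 0.36. In the lower leaf section it was 0.14 against -0.19, -0.19 against -0.50 in the base and -0.23 against -0.46 at the tip. In the inflorescence meristem it was -0.18 against 0.19, a difference of -0.37. In the coleoptile it was -0.17 against 0.05. The remaining 7 samples differed by 0.11 or less in either direction, and in the R bulk shoot both medians were 0.41. The difference in the inflorescence meristem varied with level. Under a mean FPKM of 5 both medians there were -0.13, and from 5 to 20 they were 0.10 against 0.24. From 20 to 100 they were -0.23 against 0.24, and at 100 or more -0.46 against 0.39. At 100 or more, genes with offsets under -20 nt lay lower still, at -0.73.

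These differences were small beside the spread among genes. In the mid section the quartiles of the 350 were -0.19 and 1.03 and those of the other listed genes were -0.62 and 0.75. In the inflorescence meristem they were -0.85 and 0.52 against -0.60 and 0.91. Over all levels, genes with offsets under -20 nt had medians of 0.11 in the mid section and 0.01 in the inflorescence meristem. Both lay between those of the 350 and of the smaller positive offsets. Against offsets of 1 to 100 nt the differences were larger, at 0.45 in the mid section and -0.51 in the inflorescence meristem. Median-ratio rescaling divides a sample by its median ratio to the mean sample over genes at FPKM 1 everywhere. Its log2 factors ran from -0.54 (leaf base) to 0.55 (R bulk shoot). It left the difference from the other listed genes at 0.37 in the mid section and -0.40 in the inflorescence meristem.

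**Figure D3:**
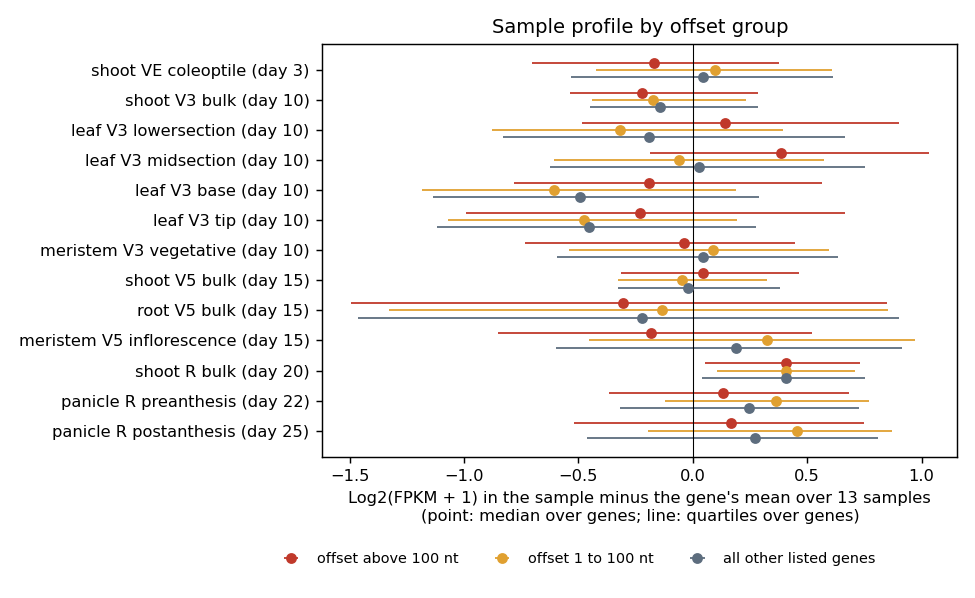
Deviation of log2(FPKM + 1) in each sample from the gene's own mean over the 13 samples, for genes with offsets above 100 nt (red), 1 to 100 nt (orange) and all other listed genes (grey). Points are medians and lines are quartiles over genes. The red point is to the right of the others in all 4 leaf 3 samples, to the left in the inflorescence meristem (-0.18 against 0.19 in grey), and the lines of the groups overlap in every sample.

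The lean to the leaf mid section was present in each band of offsets. The median deviation in the mid section was 0.36 for 101 to 150 nt, 0.34 for 151 to 200 nt, 0.54 for 201 to 300 nt and 0.44 above 300 nt. In the inflorescence meristem it was -0.13, -0.06, -0.40 and -0.20 in the same order. The bands hold different genes of the same libraries, so they are not independent measurements.

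Against the other listed genes, the sample of highest expression also leaned to leaf 3, though not to its lower section. A part of leaf 3 was the highest sample for 130 of the 350 genes (37.1%), against 27.3% of the other listed genes and 20.9% of all genes. Within the other listed genes the share was 32.0% for offsets under -20 nt and 24.2% for 1 to 100 nt. The leaf mid section took 49 (14.0%, against 7.74%) and the tip 38 (10.9%, against 7.41%). The lower section took 29 (8.29%, against 9.12%) and the base 14 (4.00%, against 2.99%). Meristems were highest for 46 genes (13.1%, against 20.9%), of which 33 were highest in the inflorescence meristem (9.43%, against 15.9%). Panicles were highest for 58 (16.6%, against 19.5%) and the root for 66 (18.9%, against 18.6%). Bulk shoots and the coleoptile were highest for 50 (14.3%, against 13.7%), of which 19 fell to the V5 bulk shoot (5.43%, against 1.85%). For 4 of the 350 genes 2 or more samples tied for the highest value.

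The share of genes highest in leaf 3 depends on how many samples each tissue has, which is the same for both groups. With samples averaged by tissue label first, leaf was highest for 31.1% of the 350 and 22.8% of the other listed genes. Within ranges of mean FPKM the shares highest in leaf 3 were 46.5% against 34.2% under 5, 30.5% against 25.0% from 5 to 20, 37.6% against 27.3% from 20 to 100 and 40.6% against 25.5% at 100 or more. The share was above that of the pooled other listed genes in each range. At 100 or more, however, the 91 genes with offsets under -20 nt had a larger share highest in leaf 3 (48.4%) and a median deviation in the mid section of 0.77, beside 0.75 in the 69 genes above 100 nt. At that level the lean to leaf was thus found at both ends of the offset list.

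**Figure D4:**
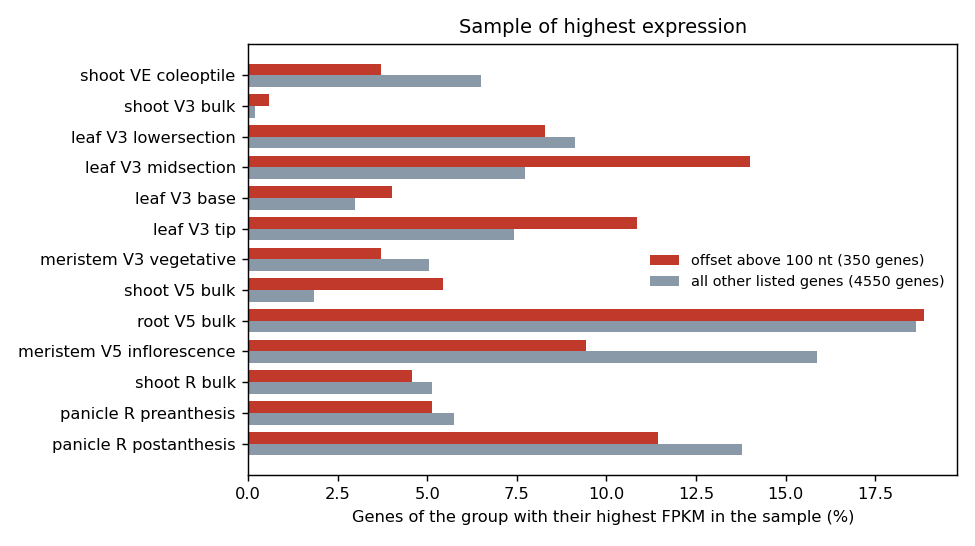
Percent of genes whose highest FPKM fell in each sample, for the 350 genes with offsets above 100 nt (red) and the other 4550 listed genes (grey). The leaf mid section (14.0% against 7.74%) and the inflorescence meristem (9.43% against 15.9%) are the widest gaps, and the root bars are nearly equal (18.9% against 18.6%).

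Abundant genes with offsets above 100 nt were low in the root, as were abundant genes with offsets under -20 nt. Over all 350 genes the median deviation in the root was -0.31, against -0.22 in the other listed genes. Among the 69 genes with a mean FPKM of 100 or more it was -1.10, against 0.04 in the 702 other listed genes of that level and 0.14 in the 335 with offsets of 1 to 100 nt. The 91 genes with offsets under -20 nt, which are among the 702, lay lower still, at -1.34. In the ranges of 20 to 100 and 5 to 20 it was -0.42 and 0.03, against -0.23 and -0.33. The root was the lowest of the 13 samples for 32 of the 69 (46.4%, against 31.2%) and the highest for 10 (14.5%, against 18.5%). For 20 of the 69 (29.0%, against 18.9%) the root was at least 2 log2 units under every other sample.

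The difference in the root between the abundant genes and the other listed genes, -1.14, moved with where the level and the offset threshold were drawn. With a mean FPKM of at least 50, a cut chosen after the data were seen, it was -0.43, and with at least 200, -1.21. With the FPKM of all transcripts of a gene added up, it was -0.75 over 91 genes. With offsets above 50, 150 and 200 nt it was -0.56, -1.64 and -1.90, the last over 21 genes with a 95% interval over genes of -5.70 to 0.40.

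Of the 6 most abundant of the 350 genes, 3 were high in leaf and shoot samples and far lower in the root. Si020830m.g (154 nt) was at FPKM 17317 in the leaf tip, 11267 in the leaf base, 8363 and 6840.0 in the lower and mid sections, 12245 in the V3 bulk shoot, 9344 in the V5 bulk shoot and 3589.6 in the R bulk shoot. The same gene was at 3665 and 2368 in the panicles after and before anthesis, 2609 in the coleoptile, 909 in the vegetative and 890.4 in the inflorescence meristem, and 25.9 in the root. Si020828m.g (258 nt) ran from 10.3 in the root to 3258 in the leaf tip, with 219 and 231 in the vegetative and inflorescence meristems. Both genes were highest in the leaf tip, low in the meristems and lowest in the root.

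Si007049m.g (236 nt) was at 3280.2 in the leaf base, 2977 in the leaf tip, 68.6 in the vegetative meristem and 3.96 in the root. The other 3 of the 6 were not low in the root. Si023187m.g (102 nt) was at 3280.2 in both the root and the vegetative meristem and lowest in the lower leaf section (548). Si001431m.g (120 nt) stayed between 935 in the lower leaf section and 2149 in the vegetative meristem. Si027015m.g (263 nt) was at 11665 in the root, with 718 in the next sample, the post-anthesis panicle, and 26.1 in the coleoptile.

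The 350 genes held a larger part of the summed FPKM in leaf than in meristems, and the genes with offsets under -20 nt did so by a wider margin. Their share was 8.09% in the leaf tip, 6.98% in the base, 6.47% and 6.39% in the lower and mid sections, against 3.34% in the vegetative and 3.31% in the inflorescence meristem. It was 6.63% in the V5 bulk shoot, 6.03% in the V3 bulk shoot, 5.40% in the R bulk shoot, 5.32% in the root, 5.08% and 4.30% in the panicles after and before anthesis and 3.50% in the coleoptile. A single gene, Si020830m.g, made up 2.73% of the sum in the leaf tip. Without it the shares were 5.36% in the tip, 5.14% to 5.35% in the other leaf parts, 3.22% and 3.19% in the meristems, 5.32% in the root and 3.17% in the coleoptile. Genes with offsets under -20 nt held 26.7% of the sum in the leaf base, 24.1% in the tip, 19.2% in the lower and 18.0% in the mid section. Their share was 7.43% in the vegetative and 6.39% in the inflorescence meristem. No gene was taken out of that group, whose most abundant gene had a mean FPKM of 15636. How far its wider margin rests on that gene was not tested.

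Few genes of the group were specific to a sample. A tau of 0.85 or more was found for 2 of the 339 genes whose highest FPKM was 5 or more, against 2.31% of the other listed genes and 5.51% of all genes. Few were also found among the smaller positive offsets. Taken over whole groups, the share was 0.571% of the 350 and 0.271% for offsets of 1 to 100 nt. It was 2.59% for -20 to -1 nt and 4.12% for offsets under -20 nt. The 2 genes above 100 nt were root genes. Si026863m.g (115 nt) was at 733 in the root, with a tau of 0.982, and at 0.729 or less elsewhere, with 0 listed in the leaf base and the inflorescence meristem. Si030905m.g (118 nt) was at 124 in the root, with a tau of 0.913 and 1.10 in the next sample. On linear FPKM the same cut was reached by 25 of the 350 and 552 of the other listed genes.

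The next genes by tau were restricted to a lesser degree. Si002608m.g (185 nt) was at 79.4 in the root with 9.56 next, in the lower leaf section. Si023534m.g (188 nt) was at 124 in the root with 11.0 next, in the mid section. Si036679m.g (127 nt) had a level of 275 in roots and 168 at the leaf tip, with 12.9 or less in the other samples. Si001302m.g (334 nt) was a weak gene, at 6.26 in the root and 2.29 in the mid section. Of the 8 highest by tau, 6 were highest in the root.

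The other 2 of the 8 were a meristem and a leaf gene. Si036092m.g (479 nt) was at 50.6 in the inflorescence and 11.6 in the vegetative meristem, 10.8 in the pre-anthesis panicle and 0.189 or less in the 4 leaf parts. Si037368m.g (214 nt) was at 12.0 in the leaf tip, 8.25 in the leaf base and 5.82 in the V5 bulk shoot, and at 0.0140 in the inflorescence meristem. Both had offsets above the median of the group.

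The genes under FPKM 1 in 7 or more samples, named here after their values were seen, were 5. Besides the 2 root genes they were Si003472m.g (191 nt), at 3.32 in the root and 2.71 in the inflorescence meristem, Si017917m.g (106 nt), at 3.08 in the root, and Si021073m.g (113 nt), which peaked at 1.53 in the leaf mid section.

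Near-constant genes were also few. A coefficient of variation over the samples under 0.2 with a mean FPKM of at least 10 was found for 1 of the 271 genes at that mean, against 0.219% of the other listed genes and 0.239% of all genes. It was Si016566m.g (207 nt), which ran from 15.8 in the inflorescence meristem to 27.4 in the R bulk shoot (coefficient 0.169). Next were Si006079m.g (178 nt) at 0.207, Si021646m.g (212 nt) at 0.214 and Si023057m.g (282 nt) at 0.249, with highest levels of 22.6, 24.1 and 38.1. The median coefficient was 0.679 in the 350 and 0.701 in the other listed genes, so breadth came with levels that still varied between samples.

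**Figure D5:**
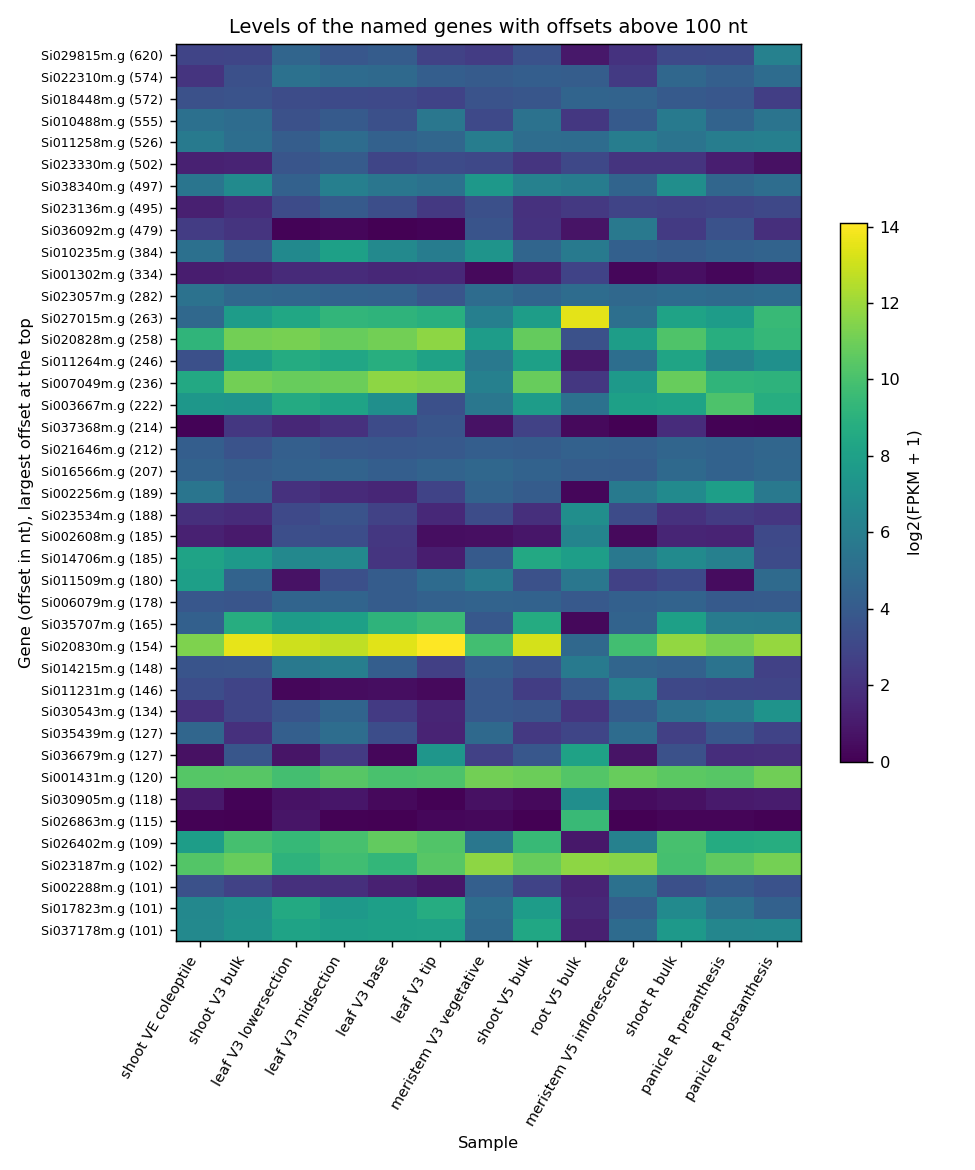
Log2(FPKM + 1) of the named genes with offsets above 100 nt (rows, offset in nt beside the ID, largest at the top) in the 13 samples (columns), with the colour bar giving the scale. Si020830m.g is brightest in the leaf tip (FPKM 17317) and dark in the root column (25.9), while Si026863m.g and Si030905m.g are bright only in the root (733 and 124), and the rows of the largest offsets show no shared column.

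Pairs of samples were compared by size alone. A gene counted as higher when its log2(FPKM + 1) lay 2 or more above the other sample and its FPKM there was 5 or more, and genes that reached FPKM 5 in neither were left out. Root against shoot at V5 gave the most. Of 320 genes with offsets above 100 nt, 41 were higher in the root (12.8%), against 14.4% of the other listed genes and 16.7% of all genes. Lower in the root were 84 (26.3%), against 24.2% and 17.5%. Both shares were near those of the other listed genes. Among the genes with a mean FPKM of 100 or more, 32 of 69 were lower in the root (46.4%), against 31.8% of the other listed genes of that level, and 10 were higher (14.5%, against 13.8%). The median difference, root minus shoot, was -1.57 there, with quartiles of -5.76 and 0.18, against 0.14 in the other listed genes (-3.96 and 1.36).

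Si026863m.g and Si030905m.g, described above, differed most toward the root, at 0.0353 and 0.275 in the V5 bulk shoot. Toward the shoot they were Si007049m.g, at 3.96 in the root and 1782 in the V5 shoot, and Si026402m.g (109 nt), at 0.905 and 728. Si026402m.g was at 1674 in the leaf base, 46.5 in the vegetative and 72.5 in the inflorescence meristem. All 4 have the root as their highest or lowest sample, but they were chosen by their difference between root and shoot. That is thus no separate result.

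The vegetative meristem and the V3 bulk shoot gave 7 genes higher in the meristem of 307 (2.28%, against 4.22% of the other listed genes and 2.95% of all genes) and 39 lower (12.7%, against 11.5% and 6.34%). Median-ratio rescaling moved the median difference of these genes from 0.32 to -0.27 and gave 2 higher (0.660%) and 57 lower (18.8%). In the other listed genes the median difference moved from 0.44 to -0.14, with 2.20% higher and 15.5% lower. As deposited, of the 69 genes above 100 nt with a mean FPKM of 100 or more, 23 were lower (33.3%, against 21.4%). Higher were 0 (against 3.75%). Meristem and shoot levels were 68.6 and 2209 for Si007049m.g, and 13.6 and 445 for Si035707m.g (165 nt). Si010235m.g (384 nt) was at 155 and 13.4 and highest in the leaf mid section (251), and Si035439m.g (127 nt) was at 26.7 and 2.94.

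Along leaf 3, 11 of 307 genes exceeded their lower-section level at the tip (3.58%, against 3.5% of the other listed genes and 2.92% of all genes) and 31 were lower (10.1%, against 12.8% and 10.4%). Median-ratio rescaling gave 17 higher (5.45%, against 4.51% of the other listed genes) and 26 lower (8.33%, against 10.8%). Si036679m.g was at 168 at the tip and at 0.717 lower down, and Si011509m.g (180 nt) was at 28.9 and 0.613. Si014706m.g (185 nt) was at 1.14 in the tip and 96.0 in the lower section, and Si003667m.g (222 nt) was at 9.70 and 395. These shares were near those of the other listed genes in both directions.

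Between the meristems, 5 of 297 genes were higher in the inflorescence meristem (1.68%, against 1.55% of the other listed genes and 0.933% of all genes) and 9 were lower (3.03%, against 1.85% and 1.29%). After median-ratio rescaling 2 were higher (0.702%, against 1.18% of the other listed genes) and 9 lower (3.16%, against 1.87%). Si011231m.g (146 nt) was at 70.5 in the inflorescence and 13.3 in the vegetative meristem, and Si003667m.g was at 255.0 and 46.2. Si011509m.g was at 5.68 and 53.6, and Si038340m.g was at 21.9 and 183. Outside the naming rule, and named after their values were seen, Si036092m.g (50.6 and 11.6), Si038047m.g (122 nt, 33.8 and 7.57) and Si022833m.g (128 nt, 40.6 and 9.41) made up the 5. The median difference was 0.08 in the genes above 100 nt and 0.27 in the other listed genes.

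After anthesis 3 of 294 genes were higher in the panicle (1.02%, against 1.54% of the other listed genes and 2.0% of all genes) and 4 were lower (1.36%, against 3.41% and 2.08%). Si011509m.g was at 28.0 after and 0.395 before, and Si029815m.g, the gene of the largest offset, was at 72.0 and 8.00. Si014706m.g was at 8.38 and 69.0, and Si014215m.g (148 nt) was at 5.50 and 40.4. The remaining genes, named after their values were seen, were Si023308m.g (178 nt), at 890.4 after and 205.5 before, and, among the lower, Si002256m.g at 50.6 and 235 and Si018224m.g (178 nt) at 11.0 and 52.4.

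In the coleoptile 8 of 292 genes were higher than in the V3 bulk shoot (2.74%, against 3.38% of the other listed genes and 2.23% of all genes) and 24 were lower (8.22%, against 7.06% and 4.64%). Median-ratio rescaling gave 6 higher (2.01%, against 3.07% of the other listed genes) and 31 lower (10.4%, against 7.92%). Scaling to equal sums gave 5 higher (1.71%, against 2.86%) and 35 lower (12.0%, against 8.09%). Si011509m.g was at 249.7 in the coleoptile, its highest sample, and 21.6 in the shoot, and Si035439m.g was at 24.5 and 2.94. Si011264m.g (246 nt) was at 9.78 and 229.7, and Si035707m.g was at 18.7 and 445. The last 2 genes were also under FPKM 1 in the root.

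Between the bulk shoots of stages R and V3, 3 of 303 genes were higher at R (0.990%, against 2.62% of the other listed genes and 2.12% of all genes) and 0 lower (against 0.292% and 0.131%). Si002256m.g (189 nt) was at 107 at R, 18.8 at V3 and 235 in the pre-anthesis panicle. Si030543m.g (134 nt) was at 38.9, 6.78 and, in the post-anthesis panicle, 151. The third, named after its values were seen, was Si010393m.g (131 nt), at 17.0 and 2.68. Median-ratio rescaling moved the median difference from 0.53 to -0.24. It gave 0 higher (against 1.20% of the other listed genes) and 9 lower (3.04%, against 1.47%). In the other listed genes the median difference moved from 0.54 to -0.21, so in both groups the direction depends on the scaling. A single V3 bulk shoot column served here and in the coleoptile and vegetative meristem comparisons.

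Genes with offsets above 100 nt had more than 1 annotated transcript more often than most listed genes. More than 1 was listed for 104 of the 350 (29.7%), against 22.3% of the other listed genes, 31.7% of those with offsets of 1 to 100 nt, 20.7% from -20 to -1 nt and 13.2% under -20 nt. The most was 13, in Si037358m.g (355 nt). Among the 104 the median gap between the first and second transcript was 0.06 on the log2 scale, and in 76 (73.1%, against 69.2%) it was under 0.1. In Si022870m.g (179 nt), named after its values were seen, the transcripts parted in the root, at FPKM 0.310 and 12.2. The offset is given per gene, so which transcript it refers to was not analysed here.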

How the data were processed

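Log2(FPKM + 1) values per transcript and 1 start site offset per gene were deposited. Per the labels' protocols, SMARTer cDNA libraries were read as paired ends of 100 nt on a HiSeq2000, and the submitters' processing notes name STAR and DESeq2 without role or version. The sources used here do not give the genome build, the annotation, or how replicates were merged and offsets made. The log2 base and the added 1 were inferred from the deposited values: as FPKM they sum to 884742 to 1110012 per sample. The offset is a deposited score in nt, used as it stands.

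FPKM divides by length and by the sample's total, so a few abundant genes lower all others. Depth is unknown, so no counting error can be given. Intervals for shares (exact binomial) and medians (order statistics) are confidence limits that treat genes as independent draws. Genes of the same libraries are not independent, and the limits do not cover variation between replicates. For a difference, the value of the reference group was subtracted from each limit, so the uncertainty of that group is left out. A gene took the values of its transcript with the highest mean FPKM over 13 samples. Tau used log2(FPKM + 1). Median-ratio factors came from genes at FPKM 1 in all samples. None of the IDs (0 matches) was found among the 34587 genes of the reference gene table, so no names, coordinates or sequences are given. Tau, breadth, the size rule and the scaling factors were run on simulated or rescaled values with known answers and no added noise. That checks the code alone, and the other summaries were not run in this way.

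Named genes are the 8 largest offsets, the 6 highest means, the 8 highest tau, the 4 lowest coefficients of variation, up to 2 each way per comparison and 3 on each side of the threshold. Members, ranges and lists were chosen with earlier results of these data known. Alternatives were other offset thresholds, scalings, pseudocounts, FPKM minimums, summed transcripts, single-transcript genes, no root sample and tissue averages. Python 3.11.15, pandas 2.3.3, numpy 2.4.6, scipy 1.17.1 and matplotlib 3.10.9 were used.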

Additional observations from a re-analysis of the deposited data

How the results depend on the processing

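Of 196 values recomputed under 21 alternative settings, 161 stayed within the main value's 95% interval over genes (or within 1.5 times a count). Another 33 moved and 2 changed sign. Some of the 161 could not change, because scaling and summed transcripts leave the offsets and the number of transcripts as they are. The tally is thus no measure of how firm the results are. The cause of each move was not tested unless the setting itself gives it. Both changes of sign came from taking offsets of 1 to 100 nt as the reference: breadth then differed by -8.11 percentage points (8.64 against all other listed genes) and the median log2 of the mean FPKM by -0.33 (0.32). The share expressed in all samples was 82.9% at FPKM 0.5 (against 73.2% of the other listed genes) and 50.3% at FPKM 5 (41.0%). Without the root it was 81.4% (73.6%). With offsets above 50 nt the breadth difference was 13.3 points and the mid section difference 0.22. Thresholds of 50, 150 and 200 nt gave median offsets of 93.0, 223 and 281.5 nt. The Spearman correlation of offset with level across genes was -0.16 above 150 nt and -0.28 above 200 nt (-0.04 above 100 nt). More than 1 transcript was listed for 23.4% of genes above 200 nt, against 22.8% of the other listed genes. Summed transcripts gave a median log2 mean FPKM of 5.06 (4.69).

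The share highest in leaf 3 was 47.1% with median-ratio scaling, 42.6% with equal sums, 44.0% without the root and 31.1% by tissue averages. Its difference from the other listed genes stayed above 0 in all 9 alternatives run, from 5.14 to 13.1 points. Sample-specific genes numbered 0 above 150 nt and 0 above 200 nt, beside 103 of the other listed genes at each threshold. They numbered 0 without the root (other listed genes 53), 1 with a pseudocount of 0.1 (45) and 25 on linear FPKM (552). Constant genes numbered 5 with median-ratio scaling, beside 36 of the other listed genes (1 and 7 as deposited). Among single-transcript genes they numbered 0, beside 4. The other listed genes are the larger group, so these counts are not shares.

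With the size rule lowered to 1 log2 unit, the shares past it were 69.1% (root and V5 shoot), 44.0% (vegetative meristem and V3 shoot), 42.0% (leaf tip and lower section), 31.8% (coleoptile and V3 shoot), 23.8% (R and V3 shoots), 22.9% (meristems) and 14.3% (panicles). With the size rule not lowered, offsets above 200 nt gave 0.952% for the panicles, against 4.86% of the other listed genes. They gave 0% for the R and V3 shoots, against 2.85%. Median-ratio scaling gave 3.04% for the R and V3 shoots, against 2.67%. No paired analysis was possible because each sample has 1 merged column, and for the same reason no replicate could be left out.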
